A study of Canis lupus familiaris with 62 samples.

Results

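Canine chromosomes 18 and 20 were examined together because, among all pairs of autosomes, the average RNA levels of their genes rose and fell most closely in step from tumour to tumour. That observation chose the 2 chromosomes, so their correlation is given here as a description, without a test. The genes described were those of the counts file on either chromosome that have more than 1 exon row (an exon row is 1 exon entry of 1 transcript in the annotation) and a span under 500 kb, without ENSCAFG00000016488 of chromosome 20, which the rule leaves out by name. They number 1688 of the 30951 genes in the file: 734 of the 991 genes on chromosome 18 and 954 of the 1146 genes on chromosome 20. On chromosome 18 the rule set aside 255 genes with 1 exon row and 2 genes with too large a span. On chromosome 20 it set aside 183 and 8. At the span limit, the widest genes taken in covered 498039 bp on chromosome 18 and 487542 bp on chromosome 20, and the narrowest left out covered 735533 bp and 503735 bp. At the exon limit, 142 genes of chromosome 18 and 113 of chromosome 20 had exactly 2 exon rows. The files give Ensembl identifiers of CanFam3.1 without gene names, so genes are named by identifier and their functions are not described.

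The tumours were 62 spontaneous meningiomas of dogs, archived in paraffin from 2011 to 2022, with total RNA sequenced from 1 library per tumour. By the treatment labels, 13 dogs had Sx (read here as surgery), 9 had SxRT (surgery with radiotherapy) and 7 had a steroid. All of the steroid group except replicate 4 carry the label steroid/anti-epileptic. Of the other dogs, 3 had an anti-epileptic drug alone, 3 had RT alone (radiotherapy) and 27 were untreated. Many of the Sx and SxRT labels add that the dog was lost to follow-up, and these dogs were kept in their treatment group. There were 31 females and 31 males, and 7 dogs were intact. No normal meninges are among the samples, ages are not given, dogs of several breeds are mixed, and whether treatment preceded tissue collection is not stated.

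Meningiomas arise from the membranes that cover the brain and spinal cord, and in people many of them lose or gain whole chromosomes or arms, which lowers or raises the RNA of many genes along them. Dog autosomes are all acrocentric, so each is in effect a single long arm. Mammalian chromosomes alternate between gene-dense stretches, where genes are short, and gene-poor stretches, where genes are long. DNA copy number was not measured here, and GC content was not analysed. In such bulk tissue, fewer cells of a type and less RNA per cell cannot be told apart.

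Each library held between 1967061 and 12063982 counts (median 4190135) and detected between 13085 and 18792 genes, and the mitochondrial share of counts ran from 3.00% to 46.7%. Of the 734 genes of chromosome 18, 663 had a count in some library, 503 passed the filter on low counts used for the treatment tests, and 381 reached a mean log2 CPM of 2 (CPM being counts scaled to a common library size) and entered the chromosome score. For the 954 genes of chromosome 20 these numbers were 917, 764 and 564. The genes were shorter than those chosen by the same rule on the 36 other autosomes: the median span was 11184.5 bp on chromosome 18 and 11942.5 bp on chromosome 20, against 17972 bp. They also lay closer together, with a median of 39 and 59 multi-exon genes within 1 Mb on either side of a gene, against 25 on the other autosomes.

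The chromosome score of a library is the mean, over the scored genes, of the gene's log2 CPM less its mean over all libraries, minus the library's median of that score over the 38 autosomes. A score of 0 is the usual level, below 0 the genes are on average lower than usual in that library, and above 0 higher. Chromosome 18 scores ran from −0.645 to 0.263 (SD 0.191, n = 62), and 33 libraries lay within 0.1 of 0. Chromosome 20 scores ran from −0.744 to 0.429 (SD 0.219), and 38 libraries lay within 0.1 of 0. Below −0.2 were 6 libraries on chromosome 18 and 8 on chromosome 20, 4 of them on both. Above 0.2 were 8 libraries on each chromosome, 7 of them on both, and in 0 libraries were the scores past 0.2 in opposite directions. The 2 scores had the same sign in 49 of 62 libraries.

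**Figure D1:**
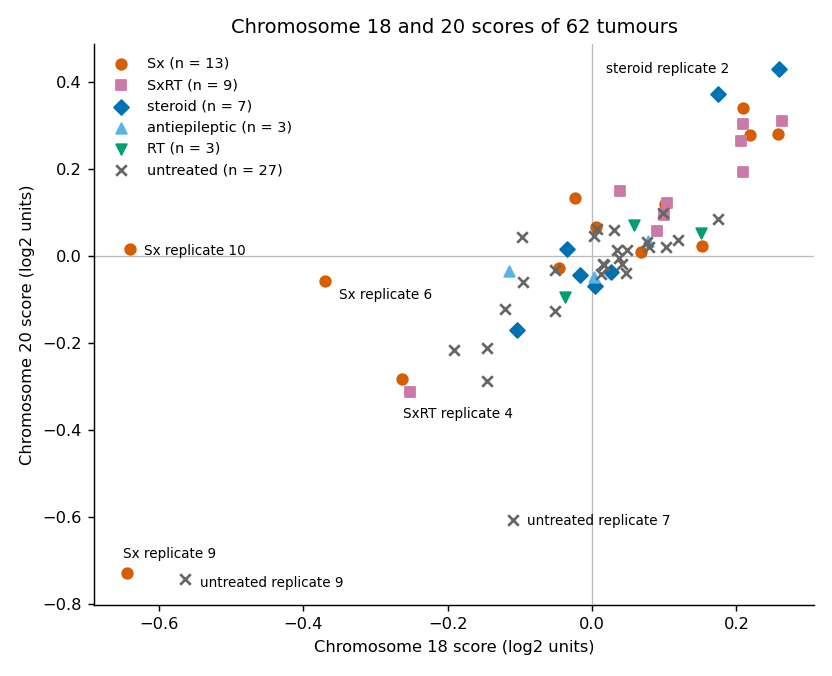
Chromosome 18 score (horizontal axis, log2 units) against chromosome 20 score (vertical axis, log2 units), 1 point per tumour, coloured by treatment label. Most of the 62 points lie on a rising band around 0. Sx replicate 9 and untreated replicate 9 sit far below on both axes, Sx replicate 10 is low on chromosome 18 with 0.015 on chromosome 20, and untreated replicate 7 is low mainly on chromosome 20.

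Over the 62 libraries the scores had a Pearson r of 0.787 and a Spearman rho of 0.831. This r was rank 1 of 703 pairs of autosomes, whose median was 0.008. Taking each library's median over the autosomes off the scores brings that median near 0; without this step it was 0.267 and the r of chromosomes 18 and 20 was 0.808. The next pairs were 14 with 32 at 0.628 and 29 with 36 at 0.627. Chromosome 5 came closest to both, with an r of 0.569 with chromosome 18 and 0.589 with chromosome 20. The r was 0.806 within the 22 surgical tumours and 0.841 within the 27 untreated ones. A few libraries weighed on it: it was 0.670 without the 2 libraries farthest from the median chromosome 20 score, 0.707 without the 3 lowest on chromosome 20 (untreated replicates 7 and 9 and Sx replicate 9), and 0.635 in the 55 neutered dogs.

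The score moved with measures of the libraries. With the log2 total count, r was 0.423 for chromosome 18 and 0.433 for chromosome 20. With the TMM scaling factor it was −0.393 and −0.441, with the mitochondrial share 0.236 and 0.255, and with the share of even counts −0.179 and −0.298. After the even share, mitochondrial share, log2 total and number of detected genes were taken off each score by a linear fit, the r of the 2 chromosomes was 0.753, and after the log2 total and the TMM factor it was 0.733. The part these measures play in single libraries was not tested.

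Libraries differed in how much of the chromosomes moved. Each chromosome was divided into 6 parts of 10 Mb, numbered from its first base, the last part ending at 55814735 on chromosome 18 and at 58095421 on chromosome 20. In Sx replicate 9 all 6 parts of both chromosomes were below 0, from −0.73 to −0.13 on chromosome 18 and from −0.93 to −0.33 on chromosome 20. Of its scored genes, 312 of 381 and 474 of 564 were below their own mean after the library's median over the autosomes was taken off. Genes below their mean are counted in this way throughout. Its scores of −0.645 and −0.729 correspond to 64% and 60.3% of the usual level. In untreated replicate 9 the parts ran from −0.78 to −0.26 on chromosome 18 and from −0.85 to −0.64 on chromosome 20, with 300 of 381 and 475 of 564 genes below their mean. These 2 libraries, SxRT replicate 4 and Sx replicate 13 were the 4 in which every part of both chromosomes was below 0. In 0 libraries was every part of either chromosome above 0.

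Other low libraries were low in some parts only. Of the 8 libraries below −0.2 on chromosome 20, 4 had every part of it below 0 and 4 did not. Untreated replicate 4, with a chromosome 20 score of −0.288, had 4 of 6 parts and 282 of 564 genes below 0, and its parts ran from −0.46 to 0.71. This library had the fewest counts (1967061) and detected genes (13085) of all. Its median gene was at 0.0004 on chromosome 20, and at 0.147 on chromosome 18, where its score was −0.146. Untreated replicate 2 had 3 of 6 parts below 0, with parts from −0.36 to 0.29, and untreated replicate 8 had 4 of 6, with parts from −0.48 to 0.51.

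The chromosomes did not always fall together. Sx replicate 10 had a score of −0.640 on chromosome 18, 64.2% of the usual level, with all 6 parts between −0.90 and −0.28 and 301 of 381 genes below their mean, while its chromosome 20 score was 0.015, 101% of the usual level. Sx replicate 6 had −0.370 on chromosome 18, with all 6 parts below 0, and −0.057 on chromosome 20. Untreated replicate 7 was the reverse, with −0.607 on chromosome 20, where 433 of 564 genes were below their mean, and −0.110 on chromosome 18, where 198 of 381 were.

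The highest libraries were high in some parts and not in others. Steroid replicate 2, the highest on chromosome 20 at 0.429 (135% of the usual level), had 0.65 in part 6 of chromosome 18 and 0.66 in part 6 of chromosome 20, but −0.81 in part 1 of chromosome 18 and −0.27 in part 3 of chromosome 20. SxRT replicate 9 had 0.43 and 0.39 in the 2 last parts, with −0.38 in part 2 and −0.57 in part 3 of chromosome 20. Sx replicate 12 had 0.45 and 0.51 in the last parts, with −0.52 in part 2 of chromosome 18. Steroid replicate 5 had 0.30 and 0.63 in the last parts, with −0.23 in part 2 of chromosome 20. This library had the most counts (12063982), the lowest TMM factor (0.556) and the highest mitochondrial share (46.7%) of all.

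**Figure D2:**
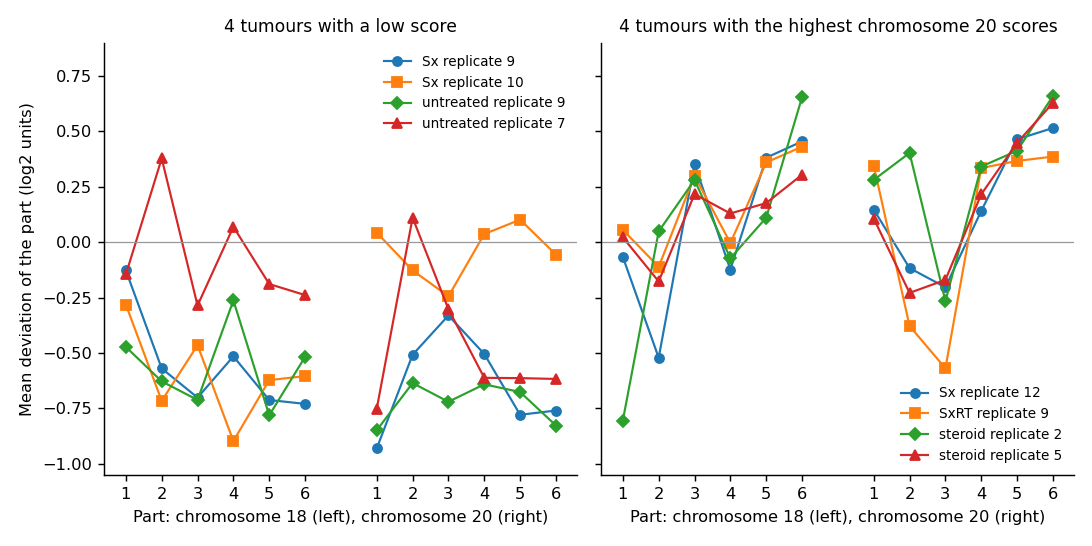
Mean deviation of scored genes from their own mean, in log2 units after the library median is taken off, for parts 1 to 6 of chromosome 18 and then of chromosome 20. Left, 4 tumours picked for a low score on 1 or both chromosomes, where a chromosome is low along most or all of its parts. Right, the 4 tumours with the highest chromosome 20 scores, where parts 4 to 6 of chromosome 20 and parts 3, 5 and 6 of chromosome 18 are above 0 and part 3 of chromosome 20 is below 0.

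Over all 62 tumours the co-variation was strongest in 3 parts of chromosome 18 and 4 parts of chromosome 20. Parts 3, 5 and 6 of chromosome 18 had an r of 0.607, 0.778 and 0.848 with the chromosome 20 score. Parts 1, 2 and 4 had 0.165, 0.062 and 0.266. On chromosome 20, parts 1, 4, 5 and 6 had an r of 0.686, 0.675, 0.740 and 0.686 with the chromosome 18 score, and parts 2 and 3 had 0.279 and 0.072. Since gene-rich parts hold most of the scored genes, they also weigh most in the score they are set against. Pairs of parts are therefore listed as well. Strong and weak parts were told apart by the r values above, in the same 62 libraries. A higher r among pairs of strong parts is thus partly fixed by that choice and is only a description. The 12 pairs of the strong parts across the chromosomes had an r from 0.471 to 0.835 (median 0.677), the highest between part 6 of chromosome 18 and part 5 of chromosome 20. The strong parts of chromosome 18 with parts 2 and 3 of chromosome 20 had from −0.122 to 0.252 (median 0.062), and the 12 pairs of weak parts of chromosome 18 with the strong parts of chromosome 20 had from −0.093 to 0.303 (median 0.151). The weak parts of both chromosomes had a median of 0.354 with each other (6 pairs, 0.115 to 0.451).

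**Figure D3:**
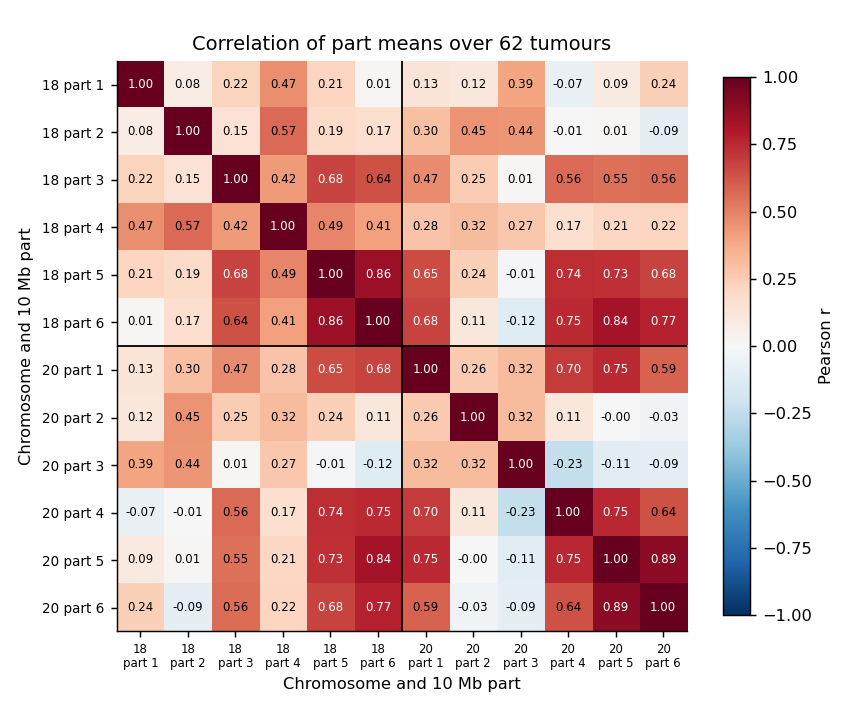
Pearson r over 62 tumours between the mean deviations of the 6 parts of chromosome 18 and the 6 parts of chromosome 20 (colour and number, from −1 to 1), black lines separating the chromosomes. Parts 3, 5 and 6 of chromosome 18 are dark red against parts 1, 4, 5 and 6 of chromosome 20 (0.47 to 0.84), while part 3 of chromosome 20 is pale against them (−0.12 to 0.01).

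The 12 strong pairs had a median r of 0.761 in surgical and 0.670 in untreated tumours. Within these groups strong and weak parts differed less. Weak parts of chromosome 18 with the strong parts of chromosome 20 had a median of 0.431 in surgical and 0.306 in untreated tumours. Over all 62 this median was 0.151. Strong parts of chromosome 18 with parts 2 and 3 of chromosome 20 had 0.186 in surgical and 0.187 in untreated tumours. Without the 3 libraries lowest on chromosome 20 the strong pairs had a median of 0.550, and the strong parts of chromosome 18 with parts 2 and 3 of chromosome 20 had −0.102. Of the 7 strong parts, all 7 were above 0 in 9 libraries and all 7 below 0 in 11 libraries. At 5 Mb the stretch of chromosome 18 from 50 to 55 Mb had the highest r with the other chromosome, 0.845 over 141 genes, and the stretch from 10 to 15 Mb the lowest, −0.182 over 23 genes. On chromosome 20 the highest was the first 5 Mb, 0.721 over 39 genes.

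The strong parts were on the whole the gene-dense ones. Part 6 of chromosome 18 held 38.7 members per Mb and part 5 held 17.6, and parts 1, 2 and 4 held 6, 7.8 and 11.9. On chromosome 20, parts 5 and 6 held 29.9 and 36.7 members per Mb, parts 1 and 4 held 13.3 and 12.8, and parts 2 and 3 held 4.4 and 5.3. Part 3 of chromosome 18 was the exception, with 7.6 members per Mb, 21 scored genes and an r of 0.607. Gene spans ran the other way, with a median of 10055 bp in part 6 of chromosome 18 and 118368 bp in part 3 of chromosome 20.

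The same relation was seen on other chromosomes. Over 212 parts of 10 Mb of the 36 other autosomes, the number of multi-exon genes in a part had a rho of 0.518 with the part's r with the chromosome 20 score, and of 0.398 with its r with the chromosome 18 score. The median gene span of a part had a rho of −0.546 with the part's r with chromosome 20 and of −0.391 with that with chromosome 18, so gene number and gene length were related to it to a similar degree, and the 2 were not separated over these parts. The 84 parts with at least 100 such genes had a median r of 0.220 with chromosome 20, and the 16 with under 50 had −0.129. Parts 5 and 6 of chromosome 18 had 0.778 and 0.848, where 10 of the 212 parts reached 0.5 and the highest were parts 2 and 1 of chromosome 15, at 0.790 and 0.713. Part 2 of chromosome 15 had 0.620 with the chromosome 18 score, and parts 6 and 7 of chromosome 3 had 0.714 and 0.710 with it.

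**Figure D4:**
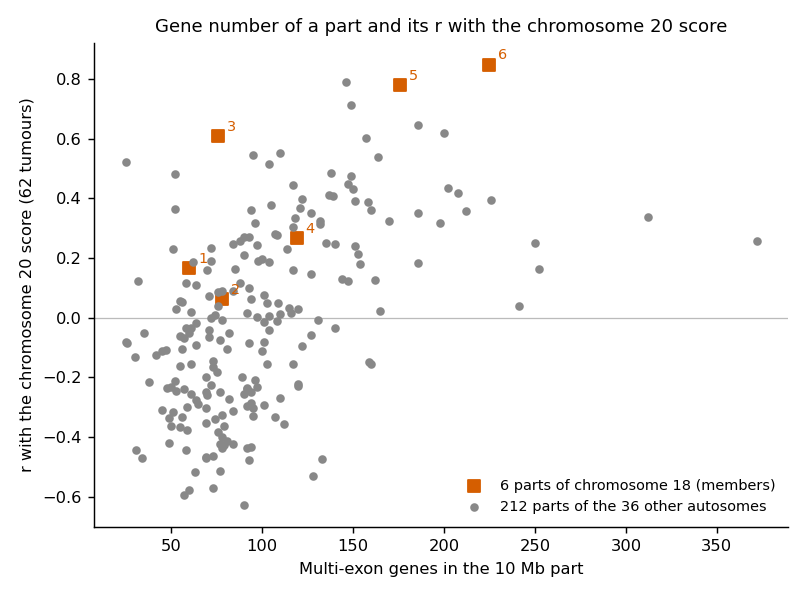
Number of multi-exon genes in a 10 Mb part (horizontal axis) against the part's Pearson r over 62 tumours with the chromosome 20 score (vertical axis). Orange squares are the 6 numbered parts of chromosome 18, grey points the 212 parts of the 36 other autosomes, which rise from left to right with a rho of 0.518; parts 3 and 5 of chromosome 18 lie near its upper edge at 0.607 and 0.778, and part 6 lies above every grey point at 0.848.

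Gene length, exon number (counted as exon rows) and expression level were each examined by dividing the scored genes of each chromosome at the median. Split by span, the short genes of the 2 chromosomes had an r of 0.829 with each other and the long genes 0.736. Short genes of chromosome 18 with long genes of chromosome 20 had 0.587, and long with short had 0.449. Short and long genes inside chromosome 18 itself had 0.561 with each other, and inside chromosome 20 they had 0.775. Split by exon rows, genes with few had 0.80 across the chromosomes and genes with many 0.793, and the unlike pairs had 0.427 and 0.570. Split by exonic length, the like pairs had 0.762 for shorter and 0.792 for longer genes, and the unlike pairs 0.492 and 0.674. Split by expression, the lower and the higher genes had 0.771 and 0.767, and the unlike pairs 0.60 and 0.503.

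In these 4 splits each class of genes had a higher r with its like on the other chromosome than with the unlike class there. A linear fit on log2 exonic length, log2 span, log2 exon rows and mean log2 CPM was made in each library over the scored genes of all autosomes. With this fit taken off, the r of the 2 chromosomes was 0.767, still rank 1, with 3 and 18 next at 0.664. The number of neighbouring genes was examined in the same way. Genes were split by neighbours within 1 Mb at the median of each chromosome, 43 on chromosome 18 and 60.5 on chromosome 20. A sparse gene of chromosome 20 can thus have more neighbours than a crowded gene of chromosome 18. Genes in crowded places had 0.816 across the chromosomes, and genes in sparse places 0.637. Crowded genes of chromosome 18 with sparse genes of chromosome 20 had 0.772, above the value for the sparse genes of both, and sparse genes of chromosome 18 with crowded genes of chromosome 20 had 0.402. With the neighbour number alone taken off, the r was 0.720 and 15 with 20 stood above it at 0.768. With all 5 properties taken off it was 0.734, again rank 2.

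Single genes followed the other chromosome to varying degrees. Of the 381 scored genes of chromosome 18, 309 (81.1%) had a positive r with the chromosome 20 score and 143 (37.5%) had at least 0.3, where 12% of 10031 genes on the 36 other autosomes did. Of the 564 scored genes of chromosome 20, 489 (86.7%) had a positive r with the chromosome 18 score and 230 (40.8%) at least 0.3, where 7.71% of the other autosomes' genes did. These shares rest on the relation that chose the chromosomes and are given as a description. By part, 52.9% of genes in part 6 of chromosome 18 reached 0.3, against 6.82% in part 2, and on chromosome 20 47.5% in part 5 did, against 0 of 13 genes in part 2. Across the genes of chromosome 18, which are not independent of each other, the r had a rho of 0.429 with the neighbour number, −0.199 with the span, 0.148 with the mean log2 CPM and 0.081 with the exon rows. Across those of chromosome 20 the rho was 0.158, −0.031, 0.316 and 0.007.

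The genes closest to the other chromosome, among those that reached a mean log2 CPM of 4, lay in part 6 of chromosome 18 and parts 5 and 6 of chromosome 20. ENSCAFG00000014106 (CanFam3.1 chromosome 18, 52258187 to 52277965, + strand) had an r of 0.762 with the chromosome 20 score, 0.684 without the 3 lowest libraries. Its log2 CPM had a lowest, median and highest value of 5.84, 6.72 and 7.54 in surgical tumours, and 5.45, 6.49 and 7.27 in untreated ones, so the groups overlapped. ENSCAFG00000016264 (chromosome 18, 55064729 to 55097627, + strand) had an r of 0.727, 0.596 without the 3. Its values were 6.59, 7.93 and 8.43 in surgical and 6.81, 7.87 and 8.39 in untreated tumours, again overlapping, and the lowest of the 62 belonged to Sx replicate 9.

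On chromosome 20, ENSCAFG00000032060 (52956529 to 52965383, + strand) had an r of 0.658 with the chromosome 18 score, 0.534 without the 3 lowest libraries. Its log2 CPM was 3.25, 5.97 and 7.06 in surgical and 4.24, 5.82 and 6.47 in untreated tumours, with the lowest value in Sx replicate 9. ENSCAFG00000013200 (41418536 to 41487024, + strand) had 0.632, and 0.524 without the 3. Its log2 CPM was 5.01, 6.25 and 6.90 in surgical and 5.22, 6.25 and 7.17 in untreated tumours, and Sx replicate 9 was again the lowest. The first overlaps 1 gene and the other 2 genes on the opposite strand, and without strand in the counting their reads cannot be told apart.

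Treatment labels were not used to choose the chromosomes. The scores overlapped widely between the treatment groups. On chromosome 18 the median score was 0.005 in Sx, 0.104 in SxRT, 0.004 in steroid, 0.002 in antiepileptic, 0.058 in RT and 0.016 in untreated tumours. On chromosome 20 it was 0.023 in Sx, 0.149 in SxRT, −0.038 in steroid, −0.036 in antiepileptic, 0.052 in RT and −0.018 in untreated tumours. All surgical tumours together had a median of 0.095 on chromosome 18, with 15 of 22 above 0, against 17 of 27 untreated. On chromosome 20 they had 0.107, with 17 of 22 above 0, against 12 of 27 untreated. The medians were not compared by a test. On chromosome 18 the SD of the scores was 0.269 over 22 surgical and 0.141 over 27 untreated tumours. On chromosome 20 it was 0.247 over the surgical and 0.198 over the untreated ones, and these spreads were not compared by a test. The highest untreated score on chromosome 20 was 0.098, and both the highest surgical score of 0.340 and the highest steroid score of 0.429 lay above it.

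**Figure D5:**
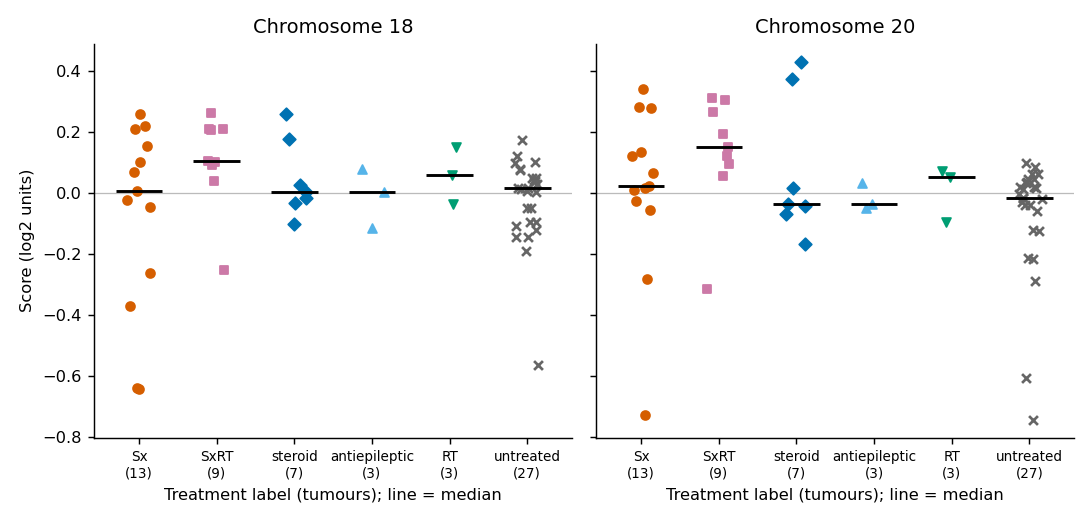
Chromosome 18 score (left) and chromosome 20 score (right) in log2 units by treatment label, 1 point per tumour with a line at the median and the number of tumours in brackets. All groups overlap around 0; the lowest points are Sx and untreated tumours, and on chromosome 20 the points above 0.1 are Sx, SxRT and steroid tumours.

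Between surgical tumours (Sx and SxRT) and untreated ones, edgeR's quasi-likelihood test on all 18370 genes that passed the filter, with adjusted p under 0.05, found 25 of 503 genes of chromosome 18 higher and 48 lower. Of all genes tested, 6.37% were higher and 10.4% lower. On chromosome 20, 74 of 764 were higher and 59 lower. Together 99 were higher and 107 lower, or 16.3% in either direction where 16.8% of all genes were called. The median log2 fold change was −0.03 on chromosome 18 and 0.14 on chromosome 20, against −0.02 over all genes. The counts fell to 11 higher and 9 lower with the first principal component in the fit, and to 23 and 31 with the share of even counts, while the counts over all genes fell to 151 and 135 and to 260 and 474. With limma voom 134 members were higher and 78 lower, and over all genes 1546 were higher and 1429 lower, against 1171 and 1907 with edgeR. The median of chromosome 20 was 0.04 with the even share in the fit and 0.09 with the first principal component.

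By part, the counts in each direction varied. Over all genes tested, 6.21% of those with a span over 50 kb were higher and 15.2% lower. Of those with a span up to 50 kb, 6.44% were higher and 8.39% lower. Scored genes had a median span of 51031.5 bp in part 2 of chromosome 18 and 118368 bp in part 3 of chromosome 20. The share of gene span in the counts by part was not tested. In part 2 of chromosome 18, 0 of 57 genes were higher and 14 lower, with a median log2 fold change of −0.28, and in part 3 of chromosome 20, 1 of 33 was higher and 6 lower, with a median of −0.24. In parts 5 and 6 of chromosome 20, 30 of 246 and 22 of 245 were higher, 17 and 14 lower, with medians of 0.14 and 0.18. Among genes of low expression that did not enter the score, 2 of 122 on chromosome 18 were higher and 20 lower (1.64% and 16.4%). On chromosome 20, 8 of 200 such genes were higher and 23 lower (4% and 11.5%). Of all genes tested, at any expression, 6.37% were higher and 10.4% lower. Genes of low expression on the other chromosomes were not counted apart. Among the scored genes of chromosome 20, 66 of 564 were higher and 36 lower (11.7% and 6.38%). Among those of chromosome 18, 23 of 381 were higher and 28 lower (6.04% and 7.35%). In a run that kept only genes averaging 1 log2 CPM or more, 7.42% of all genes were higher and 10.6% lower. That limit is below the 2 used for the score, and scored genes of the other chromosomes were not counted apart.

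Sample names carry a letter and a number that the labels do not explain. All 27 untreated dogs and 1 surgical dog have names that begin with N, and the other 21 surgical dogs have names that begin with S, so what the letter stands for and surgery cannot be told apart. Among names numbered 11 to 16 (9 surgical and 18 untreated dogs), 0 members and 0 of all 18153 genes tested were called in either direction by edgeR, with 144 members (11.5%) and 13.1% of all genes at an unadjusted p under 0.05 (DESeq2 was not run there). Among numbers 17 to 22 (13 and 9 dogs) 4 members were higher and 3 lower, or 0.303% and 0.227%, against 0.190% and 0.174% of all genes. Both divisions hold fewer tumours than the whole. The median log2 fold change of chromosome 20 was 0.02 among numbers 11 to 16 and 0.05 among 17 to 22.

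Of the genes that changed with surgery by the largest amounts, ENSCAFG00000043834 (chromosome 20, 48607346 to 48621527, + strand) had a log2 CPM of 1.41, 4.86 and 6.68 (lowest, median, highest) in surgical and −1.16, 2.66 and 3.86 in untreated tumours. The groups overlapped, and 19 of 22 surgical tumours exceeded the untreated median. Its log2 fold change was 2.55 (SE 0.343, edgeR adjusted p 1.36e-06). Since 4 genes on the same strand overlap it, its reads are uncertain. ENSCAFG00000014928 (chromosome 20, 44742161 to 44791053, + strand) had −1.16, 3.38 and 5.56 in surgical and −1.16, 1.23 and 3.37 in untreated tumours. It rose by a log2 fold change of 2.19 (SE 0.530, edgeR adjusted p 0.00303), with 20 of 22 above the untreated median, and 2 genes overlap it on the same strand. By edgeR it did not pass among name numbers 11 to 16 (log2 fold change 0.95, adjusted p 0.689) or 17 to 22 (2.42, adjusted p 0.0947), and ENSCAFG00000043834 did not among 11 to 16 (1.19, adjusted p 0.324).

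Among those that fell, ENSCAFG00000014218 (chromosome 20, 43945143 to 43970886, − strand) had a log2 CPM of −1.16, −0.24 and 2.28 in surgical and −1.16, 2.62 and 7.84 in untreated tumours, and 0 of 22 surgical tumours exceeded the untreated median. Its log2 fold change was −4.68 (SE 0.879, edgeR adjusted p 0.000294), and −1.10 with the first principal component in the fit, where the adjusted p was 0.342. ENSCAFG00000012810 (chromosome 18, 51009415 to 51013181, − strand) had 0 counts in 14 of 22 surgical and in 9 of 27 untreated tumours. The untreated median was exceeded by 1 of 22 surgical tumours. Its log2 fold change was −3.92 (SE 0.822, edgeR adjusted p 0.000841), and −0.78 with the first principal component in the fit, with an adjusted p of 0.583. By edgeR the first of the 2 did not pass among name numbers 11 to 16 (−5.27, adjusted p 0.323), nor did the other there (−4.33, adjusted p 0.334) or among 17 to 22 (−3.02, adjusted p 0.138). The other groups, all N-named, had higher medians than the surgical tumours: the median log2 CPM of the 2 genes was 6.31 and 3.38 in the 7 steroid, 4.29 and 3.00 in the 3 antiepileptic and 5.67 and 3.77 in the 3 RT tumours. The 4 genes named for surgery had an r between −0.122 and 0.152 with either chromosome score.

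Between steroid and untreated tumours, 1 gene of chromosome 18 and 5 of chromosome 20 were higher and 0 lower by edgeR, where 0.256% of all genes were higher. In either direction 179 members (14.1%) had an unadjusted p under 0.05, against 11.0% of all genes. DESeq2 called 13 members higher and 3 lower (120 and 35 over all genes), and limma voom 71 higher, or 5.6% where 5.56% of all genes were, and 17 lower, or 1.34% where 0.909% were. The median log2 fold change was 0.09 on chromosome 18 and 0.16 on chromosome 20, against 0.03 over all genes. Without steroid replicate 5 these medians were 0.0045, 0.03 and −0.04, and without steroid replicate 2 that of chromosome 20 was 0.10. The gene of smallest p, ENSCAFG00000009389 (chromosome 20, 37279282 to 37312636, − strand, overlapped by 1 gene on the opposite strand), had a log2 CPM of 7.79, 8.70 and 10.56 in steroid and 7.27, 8.16 and 8.90 in untreated tumours, with 5 of 7 above the untreated median. It rose by a log2 fold change of 0.82 (SE 0.179, edgeR adjusted p 0.0213), and without steroid replicate 5 the value was 0.30 (adjusted p 0.760). Steroid replicate 5 had the most counts, the lowest TMM factor and the highest mitochondrial share of the 62 libraries. Without it 0 members, and 2 of all genes tested, were called higher. Without the 3 libraries lowest on chromosome 20 it was 2 members and 30 of all genes.

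Between RT and untreated tumours, 6 genes of chromosome 18 and 2 of chromosome 20 were higher and 0 lower by edgeR, where 0.425% of all genes were higher. In either direction 90 members (7.10%) had an unadjusted p under 0.05, against 7.85% of all genes, and DESeq2 called 3 members higher and 3 lower (30 and 26 over all genes). The gene of smallest p, ENSCAFG00000005129 (chromosome 20, 8092957 to 8097510, + strand), had 2532, 6 and 20 counts in RT replicates 1, 2 and 3, and from 4 to 38 counts in untreated tumours. RT replicate 1 lay above the untreated range and the other two within it. Its log2 fold change was 5.42 (SE 0.574, edgeR adjusted p 1.41e-09), and −0.58 without RT replicate 1 (adjusted p 0.973). Without that tumour 1 member, and 8 of all genes tested, were called higher.

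Anti-epileptic drug alone against no treatment gave 0 higher and 0 lower members by edgeR, where 0.00544% of all genes were called; 36 (2.84%) had an unadjusted p under 0.05, against 4.61% of all genes, and DESeq2 called 0 members higher and 2 lower (1 and 28 over all genes). SxRT against Sx likewise gave 0 and 0 by edgeR, where 0.0109% of all genes were called; 64 (5.05%) had an unadjusted p under 0.05, against 5.11% of all genes. DESeq2 called 1 member higher and 0 lower (19 and 20 over all genes), and limma voom called 0. No member passed edgeR's test. The log2 fold change was positive for 75.1% of genes on chromosome 18 (median 0.18) and 69.4% on chromosome 20 (median 0.13). Over all genes it was positive for 45.5% (median −0.04). Genes of a chromosome are not independent of each other, so a few libraries can move many of them. Without the 3 libraries lowest on chromosome 20 the medians were 0.14 and 0.10. The Sx group holds Sx replicates 6, 9, 10 and 13, the 4 lowest surgical scores on chromosome 18.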

How the data were processed

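The authors' counts come from featureCounts 2.0.4, per the file headers, with Ensembl release 100 exons of CanFam3.1 summed by gene, secondary alignments left out and strand ignored. The option that counts fragments is not in the header, so both reads of a pair were counted. The submitters' processing notes also name STAR and DESeq2 and canFam3. The deposited values are raw counts. The name table at hand matched 0 identifiers, so the marker lists were not used and cell types were not checked. The file holds 0 columns of another series. No library appears more than once: the closest of 1891 pairs had a chi-square of 11.8 for each gene compared.

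The members and the rules below were chosen with earlier results of these data known. Groups came from the treatment label, and replicates were numbered in accession order; nothing in the labels says that samples share a source, and each is a separate dog as far as the labels tell. Counts were filtered with filterByExpr by treatment group, scaled by TMM and fitted with edgeR 4.0.16 in R 4.3.3 (quasi-likelihood, 6 treatment groups, sex and neuter status, all 62 libraries). P-values were adjusted by Benjamini-Hochberg over 18370 genes, and the common dispersion was 0.627. Surgery is the mean of Sx and SxRT. Scores used log2 CPM with a prior count of 2. Alternatives used limma 3.58.1 (voom, quality weights) and DESeq2 1.42.0. Scores and summaries used Python 3.11.15. The steps were tested on simulated data.

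Named treatment genes were the 2 largest changes per direction among called members whose mean log2 CPM reached 1 and whose group medians differed by 0.5 or more in the same direction. For the smaller comparisons the called member of smallest p was named. Named co-varying genes were the 2 of highest r per chromosome whose mean log2 CPM reached 4. Tests use the spread between dogs, and depth limits genes of low counts.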

Additional observations from a re-analysis of the deposited data

Results flagged for a closer look

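In the 9 SxRT tumours, replicate 4 stood apart on both chromosomes. Its chromosome 18 score was −0.252, and the next lowest SxRT tumour had 0.039, a gap of 0.566 of the group's whole range. Its chromosome 20 score was −0.314, and the next lowest had 0.056, a gap of 0.593 of the range. By chance about 1 in 20 groups would show such a gap, and it was seen in 2 of 24 groups examined, both for this 1 tumour. Since the 2 chromosomes were chosen for scores that move together, these are not 2 separate cases. All 6 parts of both chromosomes were below 0 in it. After the library's median was taken off, 246 of 381 scored genes of chromosome 18 and 378 of 564 of chromosome 20 were below their own mean. The tumour came from an intact dog.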

How the results depend on the processing

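The r of the 2 scores was positive in every alternative run. It moved from 0.787 to 0.698 with genes of a mean log2 CPM of at least 4, 0.841 in untreated tumours, 0.852 in the 41 N-named ones, 0.670 without the 2 libraries farthest from the median chromosome 20 score, and, in alternatives chosen after seeing the data, 0.720 with neighbours taken off, 0.707 without the 3 lowest libraries and 0.635 in neutered dogs. Members higher and lower with surgery, 99 and 107, became 11 and 9 with the first principal component and 23 and 31 with the even share. They became 0 and 0 among name numbers 11 to 16, and 4 and 3 among 17 to 22. In the same order, the 1171 and 1907 of all genes became 151 and 135, 260 and 474, 0 and 0, and 37 and 34. The median log2 fold change of chromosome 18 members was −0.03, and ran from −0.12 among name numbers 17 to 22 to 0.01 with limma voom; that of chromosome 20 was 0.14, and ran from 0.02 among numbers 11 to 16 to 0.14.

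Steroid calls, 6 higher and 0 lower, became 11 higher without the filter (0.696% of members, where 0.578% of all genes were). They became 13 and 3 with DESeq2 (1.03% and 0.237%, against 0.653% and 0.191% of all genes) and 71 and 17 with limma voom. With only the 2 groups fitted 0 were higher, against 0.00655% of all genes. Without sex and neuter status 10 were (0.789% against 0.593%), and with the first component 3 (0.237% against 0.174%). Without the 3 lowest libraries 2 were (0.158% against 0.164%). Leaving out 1 steroid tumour gave 0 to 10 higher (0% against 0.0109%, to 0.787% against 0.652%) and 0 to 3 lower. Antiepileptic calls, 0 and 0, became 4 higher without the filter (0.253%, against 0.119% of all genes) and 2 higher with limma voom (0.158% against 0.0762%). DESeq2 called 2 lower (0.158% against 0.152%). Leaving out 1 tumour gave 1 to 2 higher (at most 0.152% against 0.0671%). RT calls, 8 and 0, became 13 higher without the filter (0.823%, against 0.811% of all genes). They became 3 and 3 with DESeq2 (0.237% each, against 0.163% and 0.142%). Limma voom called 14 higher (1.10% against 1.12%), and the fit of only the 2 groups called 5 (0.411% against 0.130%). Leaving out 1 tumour gave 1 to 12 higher (0.0759% against 0.0415%, to 0.910% against 0.806%) and 0 to 1 lower. SxRT calls became 1 higher with DESeq2 (0.0789%, against 0.103% of all genes). ENSCAFG00000005129 ran from −0.58 without RT replicate 1 to 5.99 without RT replicate 2, and DESeq2 gave it no adjusted p. The cause of the other changes was not tested. No paired analysis was possible because replicate numbers only follow accession order.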

Other observations

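Of the 4 tumours lowest on chromosome 20, 3 came from intact dogs, of which there are 7 among 62. The intact dogs' chromosome 20 scores were −0.729 and 0.279 in Sx replicates 9 and 11, −0.314 and 0.056 in SxRT replicates 4 and 7, and −0.744, −0.060 and 0.098 in untreated replicates 9, 1 and 23. Their chromosome 18 scores were −0.645 and 0.219 in Sx, −0.252 and 0.089 in SxRT, and −0.564, −0.096 and 0.098 in untreated tumours. The intact dogs thus held both the lowest scores and one of the higher ones, with a median of −0.060 on chromosome 20 over 7 intact dogs and 0.016 over 55 neutered dogs. This relation was noticed in the scores and was not tested.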
